A study of Rattus norvegicus with 8 samples.

Results

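The 10 genes described here make, break down or bind hyaluronan, a long unsulfated sugar chain of the extracellular matrix: the synthases Has1, Has2 and Has3, the hyaluronidases Hyal1 and Hyal2, the hyaluronan-degrading proteins Cemip and Cemip2, the receptor Cd44, and the binding proteins Tnfaip6 and Vcan. They were chosen by name, all 10 have a row among the 29884 gene symbols of the count table, and all 10 passed the filter on low counts that left 16117 genes to test. The libraries come from the cervix of wild-type Sprague-Dawley rats that were pregnant in both groups. On gestational day 17 the animals of the LPS group received lipopolysaccharide, a cell wall component of Gram-negative bacteria, at 100 µg/kg into the peritoneal cavity, and the PBS group received an equal volume of phosphate-buffered saline. The tissue was taken 12 hours later, and each group has 4 libraries, which the design text calls biological replicates. The series names the treatment as a model of preterm birth, and the comparison asks how transcripts of the cervix differ after it. Each library is whole cervical tissue, so that fewer cells of a type and less RNA per cell cannot be told apart.

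Hyaluronan is spun out at the cell surface by 3 synthases from UDP-glucuronic acid and UDP-N-acetylglucosamine. It is cut at the surface and outside the cell by the CEMIP proteins and by HYAL2, and in lysosomes by HYAL1 and by exoglycosidases. Receptors such as CD44 and binding proteins such as versican hold it in the matrix, and TSG-6, the product of Tnfaip6, transfers protein chains onto it. In the cervix it is known for rising late in pregnancy, when the tissue takes up water and softens before birth.

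Total counts ran from 33191039 to 40634384 per library. Levels are CPM, counts scaled to a library of 1000000 after TMM adjustment (a trimmed mean of log ratios between libraries), and are compared between libraries for one gene, never between genes, since they are not divided by transcript length. The 4 values of a group are given in the order of replicates 1 to 4. Of 8 genes that mark the female reproductive tract, among them Pax8, Emx2, Esr1 and Pgr, all 8 were tested. Their summed level was 722 to 837 CPM in PBS and 603 to 864 CPM in LPS. By the test named below, 1 of them was higher after LPS and 3 were lower, where 9.49% and 7.45% of all genes tested were.

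After LPS, 4 of the 10 genes rose and 2 fell, where 9.49% of all genes tested rose and 7.45% fell (edgeR's quasi-likelihood test, Benjamini-Hochberg adjusted p under 0.05 over all genes tested). Cemip rose most, about 15.4-fold, and Vcan, Cemip2 and Cd44 rose by less. Hyal1 and Hyal2 fell. Has1, Has2, Has3 and Tnfaip6 did not pass the test. The median log2 fold change over the 10 genes was 0.51, where that of all genes tested was 0.01. In 5 of the 10 genes every LPS library lay above every PBS library, and in 2 every LPS library lay below, where 12.9% and 10.5% of all genes tested did so (23.4% in either direction).

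**Figure D1:**
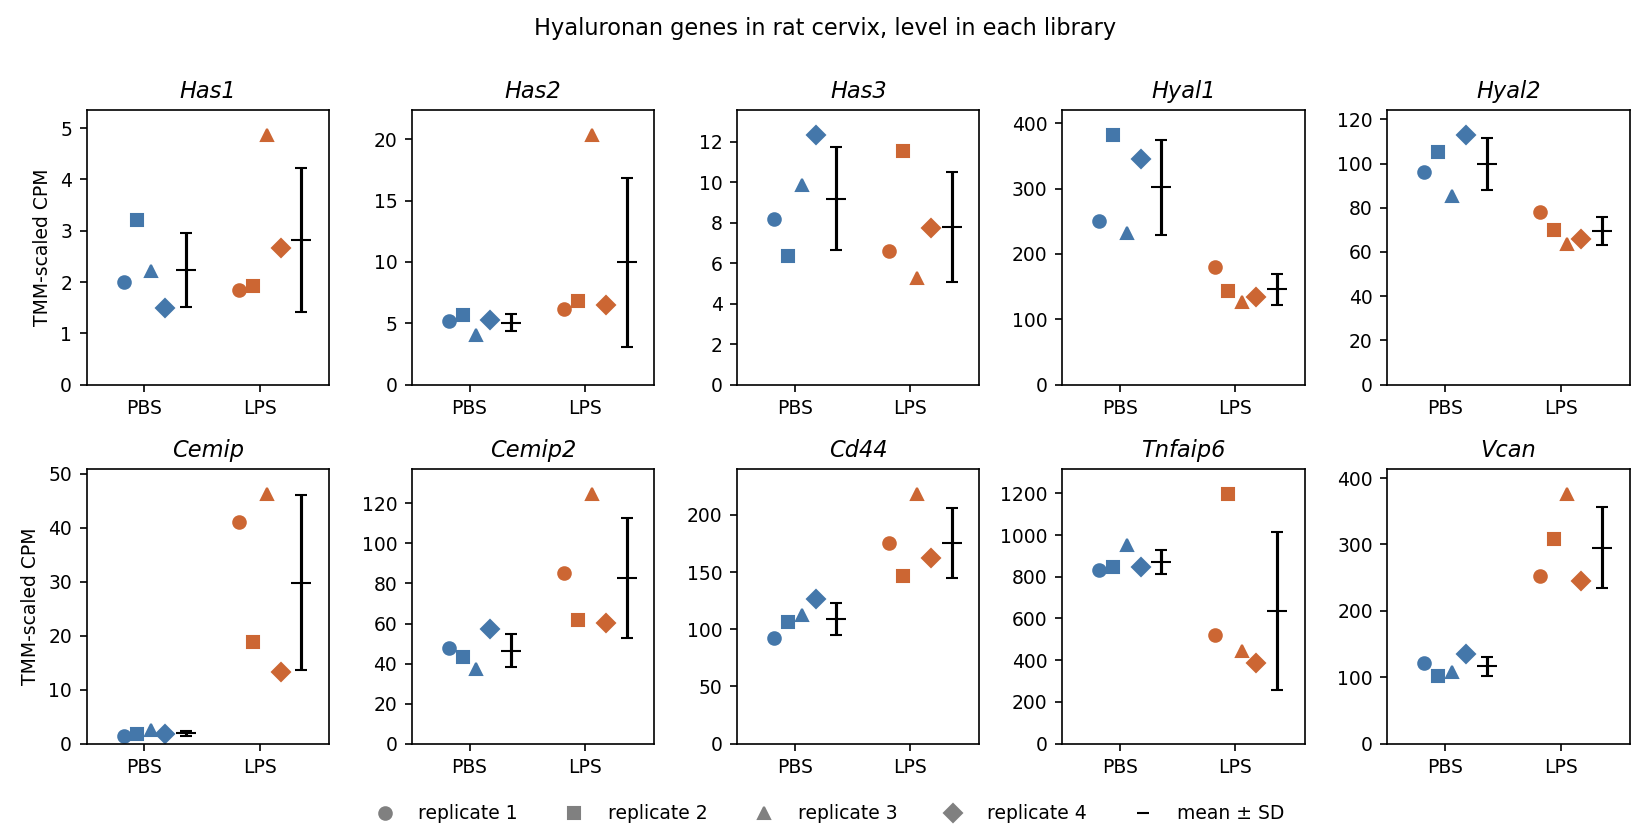
Level of each gene in each library as TMM-scaled CPM (vertical axes, each from 0), for the PBS libraries (blue) and the LPS libraries (orange), with symbols for the replicate and bars for the mean ± SD of 4 libraries. The groups of Hyal1, Hyal2, Has2, Cemip, Cemip2, Cd44 and Vcan do not overlap, and those of Has1, Has3 and Tnfaip6 do.

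Among the synthases, Has2 makes most of the hyaluronan of mesenchymal cells. Its level was 5.19, 5.64, 4.02 and 5.31 CPM in PBS replicates 1 to 4 and 6.20, 6.83, 20.3 and 6.50 CPM in LPS replicates 1 to 4. LPS replicate 3 was far above the other LPS libraries, and the lowest LPS library lay above the highest of PBS. The log2 fold change of Has2 was 0.98 (SE 0.40, adjusted p = 0.126), and without LPS replicate 3 it was 0.37 (adjusted p = 0.199). In RefSeq's annotation of GRCr8 the span of Has2 shares 2127 bases with that of a long non-coding RNA, LOC108351495, so reads there may not be told apart. That RNA had a mean of 0.38 ± 0.26 CPM in PBS and 0.89 ± 0.41 CPM in LPS (SD, 4 libraries each; adjusted p = 0.158).

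Has1, a synthase known to respond to cytokines in fibroblasts, held 1.99, 3.22, 2.22 and 1.5 CPM in PBS and 1.85, 1.92, 4.86 and 2.67 CPM in LPS. The groups overlapped, and LPS replicate 3 was again the highest. Its log2 fold change was 0.34 (SE 0.38, adjusted p = 0.579), and it turned to -0.06 without LPS replicate 3. Has3, which is known from epithelia, held 8.2, 6.34, 9.88 and 12.3 CPM in PBS and 6.62, 11.5, 5.24 and 7.75 CPM in LPS. Here LPS replicate 3 was the lowest of all 8 libraries. The log2 fold change was -0.24 (SE 0.28, adjusted p = 0.603). With 1 library left out the values ran from -0.06 to 0.57 for Has1 and from -0.50 to -0.07 for Has3, and none passed the test.

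Of the hyaluronidases, Hyal1 encodes a lysosomal enzyme that cuts hyaluronan at acid pH. Its level was 250, 382, 232 and 345 CPM in PBS and 180, 144, 127 and 133 CPM in LPS, with every LPS library below the lowest of PBS. The mean was 302 ± 72.8 CPM in PBS and 146 ± 23.7 CPM in LPS (SD, 4 libraries each), and the log2 fold change was -1.05 (SE 0.19, adjusted p = 0.00752). Hyal2, which is anchored at the cell surface and makes the first cuts in long chains, held 96.0, 105, 85.5 and 113 CPM in PBS and 78.0, 70.0, 63.6 and 66.0 CPM in LPS. These groups did not overlap either, and the log2 fold change was -0.53 (SE 0.11, adjusted p = 0.0121). Both calls held with each library left out in turn, with values from -1.17 to -0.92 for Hyal1 and from -0.59 to -0.46 for Hyal2.

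The log2 ratio of Hyal1 to Hyal2 counts within a library was 1.57 ± 0.22 in PBS and 1.06 ± 0.10 in LPS (mean ± SD, n = 4 per group). All 4 LPS ratios, 0.99 to 1.20, lay below the 4 of PBS, 1.38 to 1.86. This difference was not tested.

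Hyal1, Hyal2 and Hyal3 lie close together, with Naa80 among them, in the RefSeq annotation of GRCr8. That build is later than the mRatBN7.2 that the submitters' processing notes name. Hyal3, the other hyaluronidase of the group, held 13.6, 19.3, 13.8 and 21.9 CPM in PBS and 8.82, 8.98, 9.98 and 12.3 CPM in LPS. The groups did not overlap, and it fell by 0.77 on the log2 scale (SE 0.19, adjusted p = 0.0269). Leaving out any one of LPS replicates 1, 2 and 3 or of PBS replicates 2 and 4 ended that call (adjusted p of 0.0572 to 0.0791). In that annotation the span of Hyal1, 3852 bases long, shares 206 bases with that of Naa80, an acetyltransferase gene, and 135 bases with that of Hyal3, on the same strand. Reads in those stretches may not be told apart. Naa80, which was picked with its value in view, fell by 1.07 (SE 0.15, adjusted p = 0.003). Of the 13 protein-coding neighbours looked at, Naa80 and 6 on each side of the group, 12 were tested, 2 fell and 0 rose. Of all genes tested, 7.45% fell and 9.49% rose. The other neighbour that fell was Lsmem2 (-1.42, SE 0.34, adjusted p = 0.0236), also picked with its value in view, and Tusc2, the gene next to Hyal2, had a value of -0.27 (adjusted p = 0.12).

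Cemip encodes a secreted or surface protein needed for the breakdown of hyaluronan outside the lysosome. Its level was 1.46, 1.86, 2.59 and 1.80 CPM in PBS and 41, 18.8, 46.2 and 13.2 CPM in LPS. Every LPS library lay well above every PBS library, and the LPS libraries differed among themselves, replicates 1 and 3 being high and 2 and 4 low. The mean was 1.93 ± 0.48 CPM in PBS and 29.8 ± 16.2 CPM in LPS (SD, 4 libraries each), and Cemip rose by 3.95 on the log2 scale (SE 0.44, adjusted p = 0.0013), and it ranked 146 by p-value among the 16117 genes tested. With 1 library left out the value ran from 3.66 to 4.2 and the call held.

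Cemip2, also called Tmem2, encodes a membrane protein of the same family. It held 47.9, 43.3, 37.4 and 57.4 CPM in PBS and 85.3, 61.6, 125 and 60.0 CPM in LPS. The highest PBS library and the lowest LPS library were close but did not overlap. It rose by 0.83 on the log2 scale (SE 0.24, adjusted p = 0.0483). That call ended when LPS replicate 1, LPS replicate 3 or any single PBS library was left out (0.57 to 0.95, adjusted p of 0.0545 to 0.124), as it was with the replicate number as a block (0.78, adjusted p = 0.121). Its span in RefSeq's annotation of GRCr8 holds 5472 bases that are also those of a pseudogene, Eif4a1-ps7, which was not among the genes tested. The log2 ratio of Cemip to Cemip2 counts within a library went from -4.61 ± 0.55 in PBS to -1.60 ± 0.48 in LPS (mean ± SD, n = 4 per group), without overlap and without a test.

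**Figure D2:**
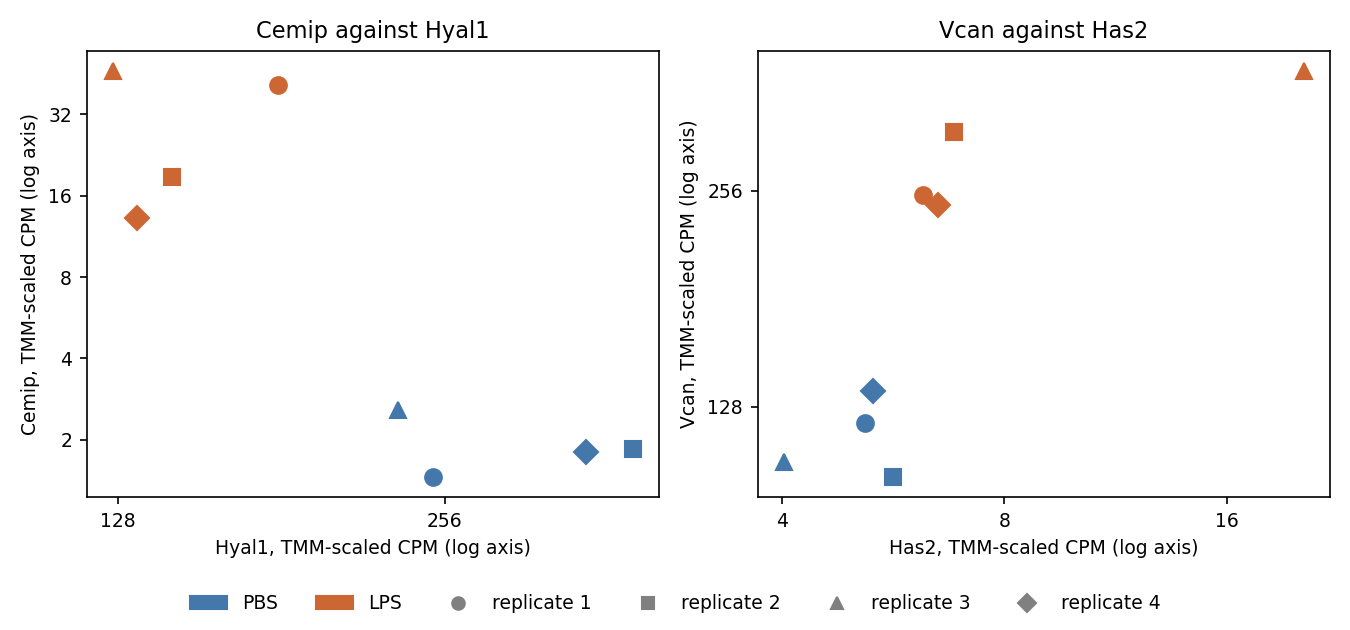
Each point is a library, blue for PBS and orange for LPS, with symbols for the replicate and log axes in TMM-scaled CPM. On the left, Cemip is plotted against Hyal1 and the LPS libraries sit at upper left, with more Cemip and less Hyal1 than any PBS library. On the right, Vcan is plotted against Has2, and LPS replicate 3 stands apart at 20.3 CPM of Has2.

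The 250 bases before the annotated start are shown for Cemip, which rose most, for Hyal1 and Hyal2, neighbours that fell together, and for Tnfaip6, whose group of LPS libraries was split. RefSeq's promoter table on GRCr8 held 7 of the 10 genes, all but Has2, Has3 and Cemip2, and gave Vcan 2 starts. The stretches are chr1:147471484-147471733 (minus strand) for Cemip, chr8:117129061-117129310 (plus strand) for Hyal1, chr8:117121552-117121801 (plus strand) for Hyal2 and chr3:56911148-56911397 (plus strand) for Tnfaip6. They are written 5′ to 3′, and capitals mark matches to the motifs searched.
Cemip: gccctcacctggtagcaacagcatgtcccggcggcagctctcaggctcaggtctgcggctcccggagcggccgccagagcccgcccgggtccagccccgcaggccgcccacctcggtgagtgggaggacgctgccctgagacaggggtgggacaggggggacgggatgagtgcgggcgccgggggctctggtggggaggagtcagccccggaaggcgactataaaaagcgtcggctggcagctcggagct
Hyal1: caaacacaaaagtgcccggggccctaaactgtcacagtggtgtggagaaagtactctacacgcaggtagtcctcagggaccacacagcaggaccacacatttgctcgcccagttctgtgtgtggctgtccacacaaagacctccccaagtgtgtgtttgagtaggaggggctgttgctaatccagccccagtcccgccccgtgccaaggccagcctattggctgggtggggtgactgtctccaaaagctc
Hyal2: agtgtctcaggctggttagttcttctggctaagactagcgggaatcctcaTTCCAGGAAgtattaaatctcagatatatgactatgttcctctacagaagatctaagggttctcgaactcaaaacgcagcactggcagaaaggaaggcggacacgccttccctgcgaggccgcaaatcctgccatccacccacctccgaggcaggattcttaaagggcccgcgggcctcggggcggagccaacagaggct
Tnfaip6: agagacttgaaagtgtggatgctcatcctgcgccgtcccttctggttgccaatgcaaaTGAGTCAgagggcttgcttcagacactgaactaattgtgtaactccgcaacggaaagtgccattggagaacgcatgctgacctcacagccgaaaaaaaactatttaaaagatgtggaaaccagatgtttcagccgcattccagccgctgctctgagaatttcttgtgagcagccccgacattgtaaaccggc

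The motifs were searched on both strands from 250 bases before to 50 bases after the start. They were the NF-kB motif, by its usual degenerate consensus, AP-1 (TGANTCA), STAT (TTCNNNGAA) and C/EBP (TTGCNNAA), and the IRF motif of paired GAAA words. Over the 8 windows of the 7 genes there were 2 matches. Tnfaip6 held the AP-1 match TGAGTCA, which begins 192 bases before the start, and Hyal2 held the STAT match TTCCAGGAA, which begins 200 bases before it. Of all 33469 windows of that length, 7.33% held AP-1, 8.87% STAT, 7.51% NF-kB, 3.92% IRF and 10.6% C/EBP. The Cemip window was 71.0% G and C with 28 CpG, where the median window had 51.7% and 7, and the Hyal1 window had 57.3% and 5.

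Cd44 encodes the main surface receptor for hyaluronan, found on leukocytes, fibroblasts and epithelia. Its level was 92.1, 106, 112 and 126 CPM in PBS and 176, 146, 218 and 162 CPM in LPS. All LPS libraries lay above all PBS libraries. Cd44 rose by 0.69 on the log2 scale (SE 0.14, adjusted p = 0.014), with values of 0.56 to 0.76 as libraries were left out and the call kept. The count table has 1 row for the gene, and its splice forms were not analysed here.

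Vcan encodes versican, a large chondroitin sulfate proteoglycan that binds hyaluronan. It held 122, 102, 107 and 134 CPM in PBS and 253, 309, 375 and 244 CPM in LPS, and the lowest LPS library was well above the highest of PBS. The mean was 116 ± 14.6 CPM in PBS and 295 ± 60.6 CPM in LPS (SD, 4 libraries each), a rise of 1.34 on the log2 scale (SE 0.16, adjusted p = 0.00148). The range with 1 library left out was 1.21 to 1.43, with the call kept.

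Tnfaip6 encodes TSG-6, a secreted protein that moves the heavy chains of inter-alpha-inhibitor onto hyaluronan and is known for being induced by inflammatory cytokines. Its level was 833, 847, 954 and 845 CPM in PBS and 519, 1190, 445 and 385 CPM in LPS. LPS replicates 1, 3 and 4 lay below every PBS library, and LPS replicate 2 lay above every PBS library. Its log2 fold change was -0.45 (SE 0.33, adjusted p = 0.385), and without LPS replicate 2 it was -0.96 (SE 0.13, adjusted p = 0.00431). With any other single library left out it did not pass (-0.47 to -0.27, adjusted p of 0.429 to 0.612). The call thus rests on leaving out the 1 LPS library that lay above PBS. The log2 ratio of Vcan to Tnfaip6 counts was -2.91 ± 0.23 in PBS and -0.97 ± 0.73 in LPS (mean ± SD, n = 4 per group), with no overlap and no test.

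**Figure D3:**
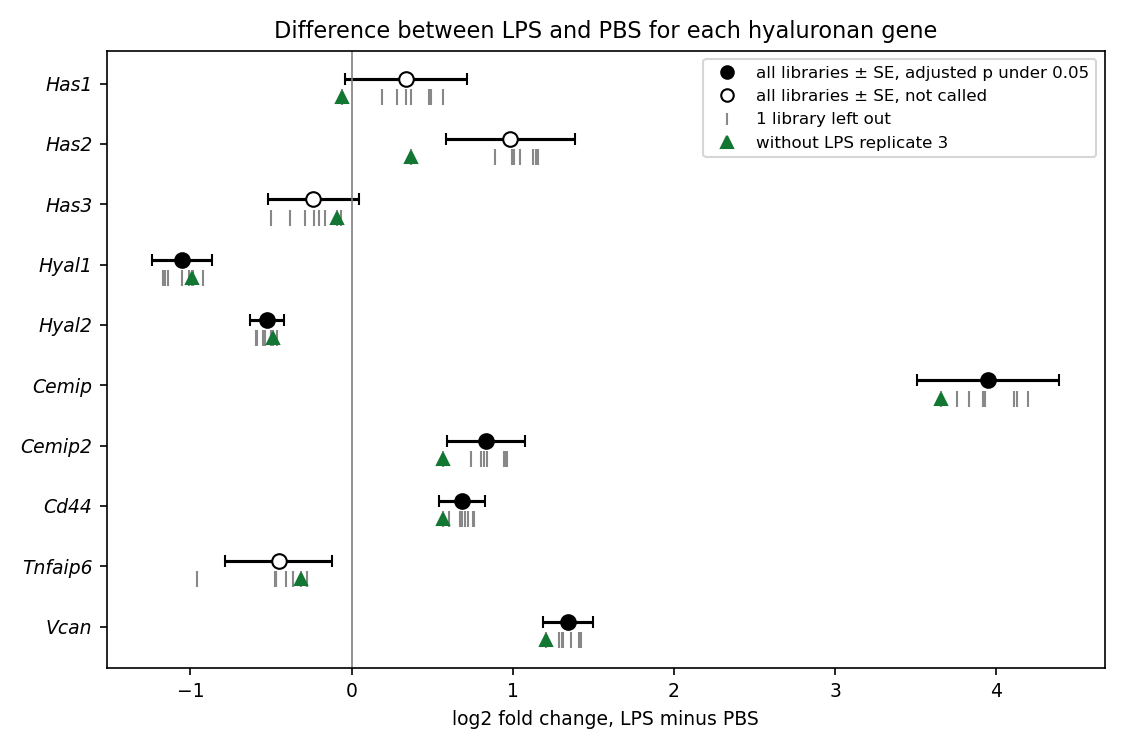
Log2 fold change, LPS minus PBS, of each gene (horizontal axis), with filled circles for genes called at an adjusted p under 0.05 and open circles for the others, bars for the SE, grey ticks for fits with 1 library left out and green triangles for the fit without LPS replicate 3. Cemip stands farthest from 0 at 3.95, and the tick of Tnfaip6 at -0.96 is the fit without LPS replicate 2.

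LPS replicate 3 was the highest LPS library for 6 of the 10 genes, Has1, Has2, Cemip, Cemip2, Cd44 and Vcan, and the lowest for 3, Has3, Hyal1 and Hyal2. In PBS no library was at the top for more than 5 of the genes. Without LPS replicate 3, 3 genes rose and 2 fell, with log2 fold changes of 3.66 for Cemip, 1.21 for Vcan, 0.56 for Cd44, -0.99 for Hyal1 and -0.49 for Hyal2. Of the 16352 genes tested in that fit, 1128 rose and 750 fell.

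A list of 27 other genes held hyaluronidases, receptors, link proteins, other hyaluronan-binding proteins and proteoglycans, inter-alpha-inhibitor chains and the pentraxin gene Ptx3. Of the 27, 16 were tested, 2 rose and 4 fell, where 9.49% and 7.45% of all genes tested did so. The other 10 tested did not pass, and the median log2 fold change was -0.27. Those below the filter included the testis hyaluronidase Spam1, the chain genes Itih1, Itih2 and Itih4, and Ambp, and 3 of them had no count in any library. Ptx3, a pentraxin that crosslinks TSG-6-bound chains in the hyaluronan matrix around the oocyte, held 2.71, 1.73, 1.01 and 0.51 CPM in PBS and 56.7, 43.1, 670 and 31.8 CPM in LPS. It rose by 7.06 on the log2 scale (SE 1.29, adjusted p = 0.0087), and by 4.86 without LPS replicate 3. Under limma-voom its value was 6.04 (SE 2.23) and missed the threshold (adjusted p = 0.0988). Hapln1, a link protein that fastens versican and aggrecan to hyaluronan, had a mean of 0.63 ± 0.26 CPM in PBS and 1.81 ± 0.89 CPM in LPS and rose by 1.52 (adjusted p = 0.0476), a call that held without LPS replicate 4 and was lost without any one of the 7 other libraries (1.12 to 1.71, adjusted p of 0.0547 to 0.116), with no filter, with limma-voom, with the replicate block or with both PBS replicate 1 and LPS replicate 2 left out (1.32 to 1.51, adjusted p of 0.0549 to 0.096).

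The link protein gene Hapln3 had a mean of 13.5 ± 3.11 CPM in PBS and 4.37 ± 0.52 CPM in LPS and fell by 1.62 (SE 0.19, adjusted p = 0.00147), and its groups did not overlap. Lyve1, a hyaluronan receptor of lymphatic vessels and some macrophages, held 36.3, 32, 23.2 and 24.1 CPM in PBS and 12.4, 10.4, 15.4 and 19.3 CPM in LPS, and fell by 1.01 (SE 0.22, adjusted p = 0.0166), though not past the threshold with PBS replicate 2 left out (-0.96, adjusted p = 0.0538), with the replicate block (-1.02, adjusted p = 0.0581) or with both PBS replicate 1 and LPS replicate 2 left out (-0.76, adjusted p = 0.0528). Itih5, which encodes a heavy chain related to those of inter-alpha-inhibitor, fell by 0.78 (SE 0.23, adjusted p = 0.0473). Its groups overlapped, and leaving out LPS replicate 2, 3 or 4 or PBS replicate 1, 2 or 3 ended the call (-0.86 to -0.58, adjusted p of 0.0617 to 0.112). So did upper-quartile scaling, no filter, the weighted limma-voom fit and leaving out both PBS replicate 1 and LPS replicate 2 (-0.78 to -0.54, adjusted p of 0.0501 to 0.147). Hmmr, an intracellular and surface hyaluronan-binding protein of dividing cells, had a value of -0.04 (SE 0.25, adjusted p = 0.931), and aggrecan, Acan, one of -1.94 (SE 0.90, adjusted p = 0.172) at 0.80 ± 0.89 CPM in PBS and 0.21 ± 0.14 CPM in LPS. PBS replicate 2 held 84 of the 124 PBS counts of Acan, and with that library left out the value was -0.83 (adjusted p = 0.546).

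Of 12 genes for the UDP-sugars from which the chain is built, 1 rose, 0 fell and 11 did not pass, with a median of 0.13. For comparison with this list and the fragment list below, 9.49% of all genes tested rose and 7.45% fell. Ugdh, which makes UDP-glucuronic acid, held 42.1, 43.1, 35.2 and 39.0 CPM in PBS and 84.2, 73.3, 175 and 75.3 CPM in LPS. It rose by 1.36 (SE 0.28, adjusted p = 0.0135), and by 0.96 without LPS replicate 3 (adjusted p = 0.00153). Gfpt2, an enzyme at the entry to UDP-N-acetylglucosamine synthesis, had a value of -0.09 (SE 0.33, adjusted p = 0.872), and LPS replicate 3 held 27.9 CPM while LPS replicates 1, 2 and 4 held 10.2, 11.5 and 12.7 CPM. Of 8 genes for the lysosomal trimming of fragments, 1 rose, 0 fell and 7 did not pass, with a median of 0.01. The one that rose was Gm2a, a lysosomal activator protein known for ganglioside breakdown (0.81, SE 0.16, adjusted p = 0.0106), and the glucuronidase gene Gusb did not pass.

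Of 12 genes for the cleavage of versican and for its matrix partners, 4 rose, 1 fell and 7 did not pass, with a median of 0.58. Over all genes tested, 9.49% rose and 7.45% fell. The metalloproteinase gene Adamts15 had a mean of 28.9 ± 1.26 CPM in PBS and 111 ± 26.4 CPM in LPS and rose by 1.95 (SE 0.16, adjusted p = 0.0004), and Adamts1 by 0.91 (SE 0.19, adjusted p = 0.0157). Adamts5 held 11.6, 16.9, 7.86 and 8.54 CPM in PBS and 37.1, 25.1, 126 and 26.1 CPM in LPS. It rose by 2.25 (SE 0.56, adjusted p = 0.0287), which became 1.39 when LPS replicate 3 was left out, and leaving out any single PBS library ended the call (2.12 to 2.52, adjusted p of 0.0517 to 0.0763). Limma-voom (1.95, adjusted p = 0.0642), the replicate block (1.92, adjusted p = 0.0842) and leaving out both PBS replicate 1 and LPS replicate 2 (2.5, adjusted p = 0.0504) ended it too. Fbln1, fibulin 1, rose by 0.92 (adjusted p = 0.022), and Fbln2, fibulin 2, fell by 1.29 (SE 0.16, adjusted p = 0.00188), its mean being 88.3 ± 14.3 CPM in PBS and 36.1 ± 6.32 CPM in LPS. Without PBS replicate 2 only 1 gene of this list rose, and the calls of Adamts1 and Fbln1 were among those lost (0.85, adjusted p = 0.055, and 0.88, adjusted p = 0.0674). That of Adamts1 also ended with both PBS replicate 1 and LPS replicate 2 left out (0.88, adjusted p = 0.0569), and that of Fbln1 with the replicate block (0.88, adjusted p = 0.059). Adamts4 had a value of 0.45 (adjusted p = 0.498), which was 0.042 when LPS replicate 3, 0.20 when PBS replicate 4 and 0.73 when PBS replicate 1 was left out. The fibronectin gene Fn1 had one of 0.70 (adjusted p = 0.126) and passed with the replicate number as a block (0.73, adjusted p = 0.0343).

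Of 17 genes for the chondroitin sulfate chains that versican carries, 16 were tested, 0 rose, 2 fell and 14 did not pass, with a median of 0.07. Over all genes tested, 9.49% rose and 7.45% fell. The galactosyltransferase gene B4galt7, which acts in the linker that joins chain and protein, fell by 0.54 (SE 0.13, adjusted p = 0.0234), and the sulfotransferase gene Chst3 by 1.15 (SE 0.29, adjusted p = 0.0296). The call of B4galt7 ended when LPS replicate 1, 3 or 4 or PBS replicate 2 was left out (adjusted p of 0.0505 to 0.0589), and that of Chst3 when LPS replicate 1 or 2 or PBS replicate 1, 2 or 3 was (adjusted p of 0.0527 to 0.079), or both PBS replicate 1 and LPS replicate 2 were (-1.10, adjusted p = 0.0995).

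Of 14 genes whose products bind, cut or splice CD44, 3 rose, 2 fell and 9 did not pass, with a median of -0.01. Again, 9.49% of all genes tested rose and 7.45% fell. The gelatinase gene Mmp9, which CD44 can hold at the cell surface, had a mean of 0.31 ± 0.26 CPM in PBS and 40.9 ± 16.3 CPM in LPS and rose by 7.06 (SE 0.57, adjusted p = 0.0004). Srgn, serglycin, a proteoglycan of leukocyte granules that binds CD44, rose by 0.98 (SE 0.13, adjusted p = 0.00267), and the sheddase gene Adam17 by 0.63 (SE 0.13, adjusted p = 0.0129). Ezr, ezrin, which links CD44 to actin in epithelia, held 1590, 1650, 1300 and 1490 CPM in PBS and 753, 814, 552 and 681 CPM in LPS and fell by 1.11 (SE 0.14, adjusted p = 0.00196). Iqgap1 fell by 0.32 (SE 0.08, adjusted p = 0.0316), a call that ended when replicate 2, 3 or 4 of either group was left out (adjusted p of 0.0503 to 0.0953), with the replicate block (adjusted p = 0.0882) or with both PBS replicate 1 and LPS replicate 2 left out (adjusted p = 0.0721). Esrp1 and Esrp2, epithelial splicing factors, did not pass.

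**Figure D4:**
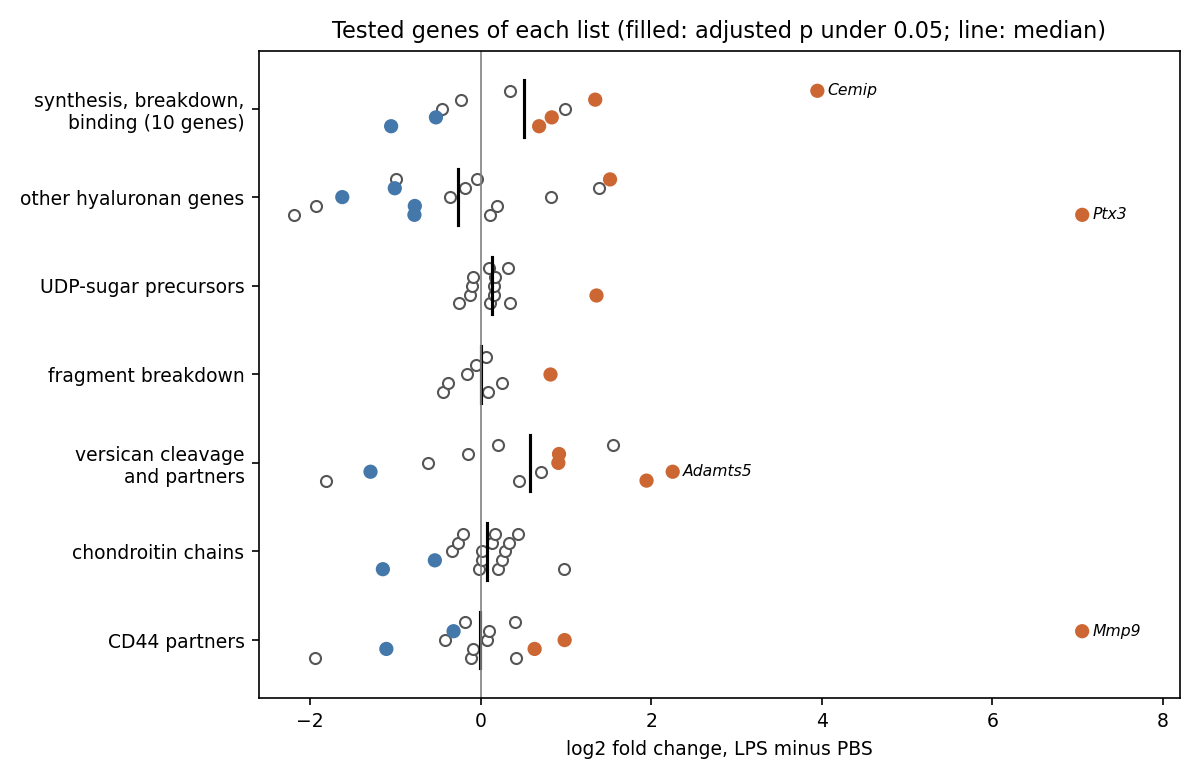
Log2 fold change, LPS minus PBS (horizontal axis), of every tested gene of the 10 described genes and of 6 related lists, with orange and blue for genes that rose and fell at an adjusted p under 0.05, open circles for the others and a black line for each list's median. Most open circles of the UDP-sugar and fragment breakdown lists lie near 0, and Cemip, Ptx3, Adamts5 and Mmp9 stand at the right.

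Markers of several cell types moved with the groups. The counts of markers called below stand beside 9.49% of all genes tested that rose and 7.45% that fell. The summed level of 9 fibroblast markers was 12200 to 15410 CPM in PBS and 17300 to 27100 CPM in LPS, with 4 of 9 higher and 0 lower, and Col1a1 stood at 5303 ± 606 and 5980 ± 1563 CPM. That of 8 macrophage markers was 417 to 540 CPM and 1076 to 1555 CPM, with 6 of 8 higher and 1 lower, and that of 8 neutrophil markers was 36.1 to 62.0 CPM and 412 to 1689 CPM, with 7 of 8 higher and 0 lower. That of 9 squamous epithelium markers with a row was 4768 to 8770 CPM and 3040 to 4021 CPM, with 3 of 7 tested lower and 0 higher. The 3 were Krt13, Krt1 and Sprr1a, and Krt13 went from 2197 ± 935 CPM in PBS to 94.9 ± 48.55 CPM in LPS. Krt5 (-0.30, adjusted p = 0.339), Krt14 (0.12, adjusted p = 0.751), Krt10 (-0.30, adjusted p = 0.539) and Dsg3 (-1.14, adjusted p = 0.104) did not pass. The summed level of 8 smooth muscle markers was 4526 to 12570 CPM and 3762 to 5498 CPM, with 6 of 8 lower and 0 higher. The sums of 8 markers of simple epithelium were 3728 to 5006 CPM and 2860 to 3543 CPM, with 1 of 8 lower and 0 higher. Those of 6 of mesothelium were 735 to 988 CPM and 983 to 1161 CPM, with 1 of 5 tested higher and 0 lower. Msln rose by 0.76 (adjusted p = 0.029), while Krt19 (0.02), Wt1 (0.38), Upk3b (-1.95) and Lrrn4 (-1.68) did not pass. Those of 8 of endothelium were 343 to 743 CPM and 363 to 542 CPM, with 2 of 8 lower and 0 higher. Those of 8 of lymphocytes were 4.95 to 10 CPM and 8.34 to 12.9 CPM, with 1 of 6 tested higher and 0 lower. Each marker with a row had at least 1 count, Mmp9 is both a neutrophil marker and on the CD44 list, and Krt19 is on both the simple epithelium and the mesothelium list. The part of these shifts in the levels of the hyaluronan genes was not tested.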

How the data were processed

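Cervical RNA of 8 rats was extracted with TRIzol and made into libraries with the VAHTS Universal V6 kit, per the labels' protocols. Raw counts were deposited by the authors; they are whole numbers for each symbol in each library. Per the submitters' processing notes, the build was mRatBN7.2 and the tools included HISAT2, HTSeq, fastp and R 3.2.0, with no role stated. Neither annotation nor strandedness is given in the sources used here, and overlapping genes may share reads.

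Columns were matched to samples by the library names in the labels. Genes were filtered with filterByExpr and tested with edgeR 4.0.16 in R 4.3.3 (TMM scaling, robust quasi-likelihood F test, no covariate), with Benjamini-Hochberg adjustment over all genes tested. The SE is the size of the log2 fold change divided by the square root of F. The alternatives tried were DESeq2 1.42.0, voom of limma 3.58.1 (plain or with quality weights), scaling by RLE or the upper quartile, no filter, a filter of 1 CPM in 4 or more libraries, each library left out, the replicate number as a block, and both PBS replicate 1 and LPS replicate 2 left out. On simulated counts of 15939 genes, 64% of 100 genes changed 2-fold and 82% of 100 changed 4-fold were called in the simulated direction, and 10 unchanged genes were called. Far fewer genes were changed there than were called in the data (2729 of 16117), and the noise was drawn separately for each gene. These shares therefore do not give the recovery in the data.

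The genes, lists and alternatives were chosen with earlier results of these data known. The genes named were all 10 described genes, up to 4 called genes per direction with the lowest adjusted p in each related list, and a fixed set named whatever their result. Replicate pairs of one group differed by more than sampling noise (the lowest chi-square divided by its degrees of freedom was 57.3).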

Additional observations from a re-analysis of the deposited data

Results flagged for a closer look

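In groups of 4 libraries, a library was singled out where its gap to the nearest other library divided by the group's whole range exceeded Dixon's critical value for 4 libraries. Of the 84 groups looked at, 9 had such a library, and chance gives about 1 in 20. LPS replicate 3 stood apart for Has2 (a gap of 0.955 of the range, 20.3 CPM against 6.83 CPM in the nearest library), Ptx3 (0.961, 670 against 56.7 CPM), Ugdh (0.893, 175 against 84.2 CPM), Adamts5 (0.881, 126 against 37.1 CPM) and Gfpt2 (0.859, 27.9 against 12.7 CPM), each time as the highest. Tnfaip6 stood apart in LPS replicate 2 (0.835, 1190 against 519 CPM) and in PBS replicate 3 (0.884, 954 against 847 CPM). Col1a1 did so in the same libraries, LPS replicate 2 being high (0.91, 8320 against 5330 CPM) and PBS replicate 3 low (0.934, 4400 against 5570 CPM).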

How the results depend on the processing

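The calls of Cemip, Vcan, Cd44, Hyal1 and Hyal2 and the directions of the other genes of the 10 held under every alternative run, except where named here. Cemip2 was not called with RLE scaling (0.83, adjusted p = 0.0503), no filter (0.83, adjusted p = 0.0578), limma-voom (0.79, adjusted p = 0.055), the replicate block (0.78, adjusted p = 0.121) or both PBS replicate 1 and LPS replicate 2 left out (0.96, adjusted p = 0.069), and it ran from 0.57 to 0.96 with 1 library left out. Tnfaip6 passed without LPS replicate 2 and with both of those libraries left out (-0.98, adjusted p = 0.00906), and ran from -0.96 to -0.27 with 1 library left out. Has1 ran from -0.057 to 0.57, turning without LPS replicate 3. With 1 library left out, 904 to 1385 genes rose and 563 to 1199 fell in all, and with DESeq2 2099 rose and 2089 fell. Of the other hyaluronan genes, 1 to 3 rose and 1 to 4 fell with 1 library left out, 1 rose with no filter, the replicate block or both libraries left out, 0 rose with limma-voom and 2 fell with both left out. Of the versican list, 1 to 5 rose and 1 to 2 fell with 1 library left out, 2 rose with both left out, and 2 fell with RLE or upper-quartile scaling, no filter, at least 1 CPM in at least 4 libraries, or DESeq2. With DESeq2 2 UDP-sugar genes rose. Of the chondroitin list 0 to 2 fell, and of the CD44 list 1 to 2, with 1 library left out, and 1 of each fell with both left out. The value of Hmmr turned with limma-voom (0.0065), its weighted fit (0.082), both left out (0.045), and from -0.21 to 0.12 with 1 library left out, and that of Gfpt2 with both left out (0.045) and from -0.53 to 0.065. The causes were not tested. The deviations of same-numbered replicates from their group means had correlations of -0.134, -0.181, -0.0867 and 0.208. Only for replicate 4 were the same-numbered libraries each other's best match. These values cannot tell whether same-numbered libraries shared a batch. The number is that of the sample title, and the library name of LPS replicate 4 carries another. Under the replicate block 3 of the 10 genes rose and 2 fell, where 1151 of all 16117 genes tested rose and 845 fell. DESeq2 gave no adjusted p for Ptx3, and that value is left out.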
